A study of Mus musculus with 4 samples.

Results

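The genes described here are 10 genes of blood endothelium and of vessel growth, taken by exact symbol from the 17335 genes of the deposited expression table: *Pecam1*, *Cdh5*, *Kdr*, *Flt1*, *Tek*, *Tie1*, *Vegfa*, *Vegfb*, *Angpt1*, and *Angpt2*. All 10 were present and reached 0.1 FPKM (FPKM counts fragments, corrected for the length of the transcript and the depth of sequencing) in at least 1 library. The RNA came from gonadal white adipose tissue (gWAT) of female mice fed high-fat diet (HFD) for 18 weeks, either fl/fl mice, whose floxed *Dnmt1* is intact, or AD1KO littermates, in which adiponectin-Cre deletes *Dnmt1* in adipocytes. The animals' age is not given in the sources used here. RNA of 4 animals per genotype was combined before sequencing, so each genotype is 1 library and nothing measures the spread between animals. The adiponectin promoter drives Cre in adipocytes, so endothelial cells are not the cells it targets. Of the 10 genes, the 6 receptor and adhesion genes (the first 6 named) are mainly expressed in endothelial cells, and *Angpt2* is expressed there too.

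Blood vessels of fat are lined by endothelial cells, which hold together through the adhesion proteins encoded by *Pecam1* (CD31) and *Cdh5* (VE-cadherin). VEGF-A, made in fat largely by adipocytes, drives vessel growth by binding VEGFR2 (*Kdr*), while VEGFR1 (*Flt1*) binds VEGF-A and VEGF-B and can hold VEGF-A away from VEGFR2. The angiopoietins act on TIE2 (*Tek*), with TIE1 (*Tie1*) as its partner: angiopoietin-1, from mesenchymal cells, steadies vessels, and angiopoietin-2, released by endothelium, can oppose it.

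The depth of the libraries was similar, with 17650000 reads estimated for fl/fl and 17460000 for AD1KO from the steps in which low FPKM values occur. *Dnmt1* was at 6.99 FPKM in fl/fl and 3.33 FPKM in AD1KO (log2 ratio -1.07), and *Esr1*, the gene the study follows, at 4.82 and 8.44 FPKM (log2 ratio 0.81). The lower *Dnmt1* level lay in the library labelled AD1KO. Every log2 ratio below is AD1KO over fl/fl after adding 0.01 FPKM. The limits given with it are those of a 95% counting interval (exact Clopper-Pearson, on the estimated reads), which covers counting error only. A gene is called higher or lower at a log2 ratio of 0.5 in either direction, the threshold the study used, and no p-value can be given with 1 library per genotype.

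Proximal promoter sequence was available for 6 of the 10 genes, all 4 receptor genes and both *Vegf* genes, in the RefSeq promoter table of mouse build GRCm38.p6. The 250 bases before the start site are shown, 5′ to 3′ in the direction of transcription, for the 3 genes with the largest log2 ratios and for *Flt1*, the other VEGF receptor. Capitals mark CG dinucleotides, the site at which DNMT1 maintains methylation. The windows are chr4:118489850-118490099, minus strand, for *Tie1*; chr5:75978456-75978705, minus strand, for *Kdr*; chr5:147726012-147726261, minus strand, for *Flt1*; and chr17:46032378-46032627, minus strand, for *Vegfa*, the upstream one of its 2 listed starts.
Tie1: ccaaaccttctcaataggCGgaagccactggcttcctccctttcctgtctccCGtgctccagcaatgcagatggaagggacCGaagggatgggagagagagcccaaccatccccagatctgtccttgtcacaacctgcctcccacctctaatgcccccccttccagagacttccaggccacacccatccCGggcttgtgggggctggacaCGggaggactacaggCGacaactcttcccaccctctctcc
Kdr: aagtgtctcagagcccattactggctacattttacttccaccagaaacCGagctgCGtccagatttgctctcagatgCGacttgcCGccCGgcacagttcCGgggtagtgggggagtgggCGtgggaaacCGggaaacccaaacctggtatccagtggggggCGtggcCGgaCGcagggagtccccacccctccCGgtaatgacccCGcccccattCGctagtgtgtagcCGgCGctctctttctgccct
Flt1: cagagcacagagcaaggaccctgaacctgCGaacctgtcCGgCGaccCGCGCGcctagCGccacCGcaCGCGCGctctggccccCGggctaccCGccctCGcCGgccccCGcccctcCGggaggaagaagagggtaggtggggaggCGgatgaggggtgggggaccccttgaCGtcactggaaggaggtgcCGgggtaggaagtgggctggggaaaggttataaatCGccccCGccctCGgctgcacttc
Vegfa: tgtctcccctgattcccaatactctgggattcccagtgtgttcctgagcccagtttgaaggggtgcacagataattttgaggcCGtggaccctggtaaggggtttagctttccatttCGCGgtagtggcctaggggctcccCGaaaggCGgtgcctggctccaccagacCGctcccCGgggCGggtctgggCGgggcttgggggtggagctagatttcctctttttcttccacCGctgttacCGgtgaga

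The windows differed widely in CG content. *Tek* had 2 CG dinucleotides and *Tie1* 6, the latter equal to the median of 6 over 32851 promoters of the same length. *Vegfa* had 11, *Kdr* 16, *Flt1* 23, and *Vegfb* 26. CGGAA, a longer form of the core motif of ETS factors that holds a CG, was searched on both strands. Many endothelial promoters use factors of this family. CGGAA occurred in *Tie1* and *Kdr* but not in the windows of *Tek*, *Flt1*, *Vegfb*, or either *Vegfa* start. It occurred in 25.2% of all promoters. Forms of the motif without the CG were not searched, so their absence is not shown for any window. Methylation of these promoters was not analysed here, and the letters alone say nothing of how the genes were controlled.

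Among the 10 genes, 8 had a higher level in AD1KO gWAT and 2, both angiopoietins, a lower one. *Vegfa* and *Tie1* were called higher and *Angpt2* lower, which left 7 genes short of the threshold. Over all 15839 genes tested, 14.3% were called higher and 19.1% lower. The median log2 ratio of the 10 genes was 0.31, against -0.04 over all genes tested, and 45.3% of all genes tested had a ratio above 0. The whole counting interval lay above 0 for 6 of the 10 genes (*Cdh5*, *Kdr*, *Tek*, *Tie1*, *Vegfa*, and *Vegfb*), against 21.6% of all genes tested. It lay below 0 for 1, *Angpt2*, against 29.0% of all genes. These shares are not matched for reads. All genes tested include those near 0.1 FPKM, with few reads and wide intervals, while the 6 genes had at least 342 estimated reads in each library. *Pecam1*, *Flt1*, and *Angpt1* had intervals that held 0 with the deposited scaling.

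**Figure D1:**
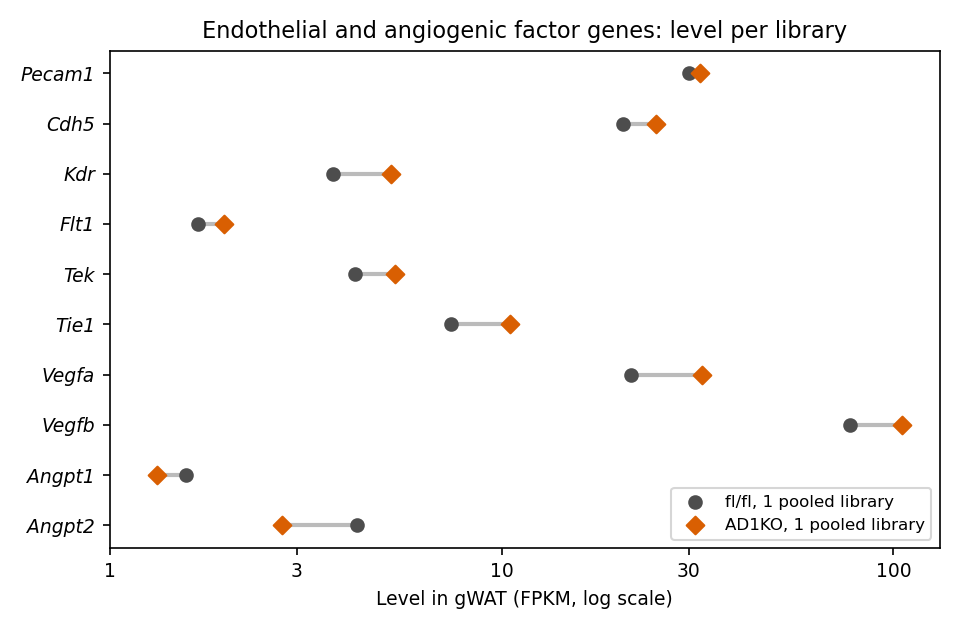
Level of each of the 10 genes in the fl/fl library (grey circles) and the AD1KO library (orange diamonds), in FPKM on a log scale, with 1 pooled library per genotype and no error bar. *Vegfb* is the most abundant gene in both libraries, at 77.3 and 105 FPKM, and only the angiopoietin genes lie to the left in AD1KO.

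*Pecam1*, which encodes an adhesion protein shared by endothelium, platelets, and many leukocytes, lies on chromosome 11 of mm9 (106515531 to 106611942, minus strand). The library of fl/fl gave 30.1 FPKM and that of AD1KO 32.1 FPKM, from 1676 and 1771 estimated reads. Its log2 ratio of 0.10 (limits -0.0020 to 0.19) was the smallest in size of the 10, and this depth does not show a difference. *Cdh5*, the cadherin of endothelial junctions (chromosome 8, 106625525 to 106668402, plus strand), measured 20.4 FPKM in fl/fl against 24.8 FPKM in AD1KO (log2 ratio 0.29, limits 0.18 to 0.39), short of a call. The ratio of *Cdh5* exceeded that of *Pecam1* by 0.19 on the log2 scale (limits 0.05 to 0.33), so that the adhesion genes did not move by the same amount in these libraries.

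*Kdr*, on chromosome 5 (76328852 to 76374483, minus strand), encodes the main signalling receptor for VEGF-A. Its level was 3.72 FPKM in fl/fl and 5.22 FPKM in AD1KO, from 351 and 487 estimated reads. The log2 ratio of *Kdr* was 0.49 (limits 0.29 to 0.69), just short of a call. *Flt1*, the decoy-like receptor (chromosome 5, 148373180 to 148537587, minus strand), had a lower level than *Kdr* in both libraries, 1.68 FPKM in fl/fl and 1.96 FPKM in AD1KO. Its 183 and 211 estimated reads gave a log2 ratio of 0.22 (limits -0.07 to 0.51). The table gives 1 value per gene, so the soluble form of *Flt1* cannot be told apart from the membrane form. The ratio of *Kdr* exceeded that of *Flt1* by 0.27 (limits -0.08 to 0.61), so the receptors could not be separated at this depth.

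*Tie1*, on chromosome 4 (118143796 to 118162666, minus strand), encodes an orphan receptor that pairs with TIE2. It had 7.44 FPKM in fl/fl and 10.5 FPKM in AD1KO, a 1.41-fold difference from 495 and 693 estimated reads. The log2 ratio of *Tie1*, 0.501 (limits 0.33 to 0.67), is at the threshold itself, and with 0.1 FPKM added in place of 0.01 it was 0.496 and no longer called. *Tek*, the angiopoietin receptor (chromosome 4, 94405980 to 94541667, plus strand), went from 4.23 FPKM in fl/fl to 5.35 FPKM in AD1KO (log2 ratio 0.34, limits 0.13 to 0.55). The ratio of *Tie1* exceeded that of *Tek* by 0.16 (limits -0.10 to 0.43). All 6 endothelial receptor and adhesion genes thus had a higher level in AD1KO, with a median log2 ratio of 0.31 and a range from 0.10 to 0.50. For *Pecam1* and *Flt1*, however, the counting interval held 0 with the deposited scaling.

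*Vegfa*, the leading vessel growth factor of fat (chromosome 17, 46153942 to 46169326, minus strand), had the largest log2 ratio of the 10. Its level was 21.3 FPKM in fl/fl and 32.5 FPKM in AD1KO, from 1275 and 1921 estimated reads. The 1.52-fold difference gives a log2 ratio of 0.61, and *Vegfa* was the 1 gene of the 10 with both counting limits, 0.504 and 0.71, past 0.5. *Vegfb*, a VEGFR1 ligand linked to fatty acid handling by endothelium (chromosome 19, 7056963 to 7062141, minus strand), was the most abundant at 77.3 and 105 FPKM. Its log2 ratio was 0.45 (limits 0.35 to 0.54). The ratio of *Vegfa* exceeded that of *Vegfb* by 0.16 (limits 0.02 to 0.30). Transcript forms of *Vegfa* that differ in heparin binding are not resolved in the table.

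The angiopoietin genes went the other way. *Angpt2* (chromosome 8, 18690263 to 18741562, minus strand) had 4.29 FPKM in fl/fl and 2.75 FPKM in AD1KO, from 245 and 155 estimated reads. This is 0.642 of the fl/fl level, with a log2 ratio of -0.64 (limits -0.94 to -0.35). *Angpt1* (chromosome 15, 42256273 to 42508523, minus strand) had the fewest estimated reads of the 10, 116 in fl/fl and 97 in AD1KO, for levels of 1.57 and 1.32 FPKM. With a log2 ratio of -0.25 (limits -0.65 to 0.16), no difference could be shown at this depth. An exon of the long noncoding gene *Gm17473*, on the opposite strand, overlaps exon sequence of *Angpt1* in the annotation. As the use of strand in counting is not given, reads from that overlap cannot be assigned to either gene.

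**Figure D2:**
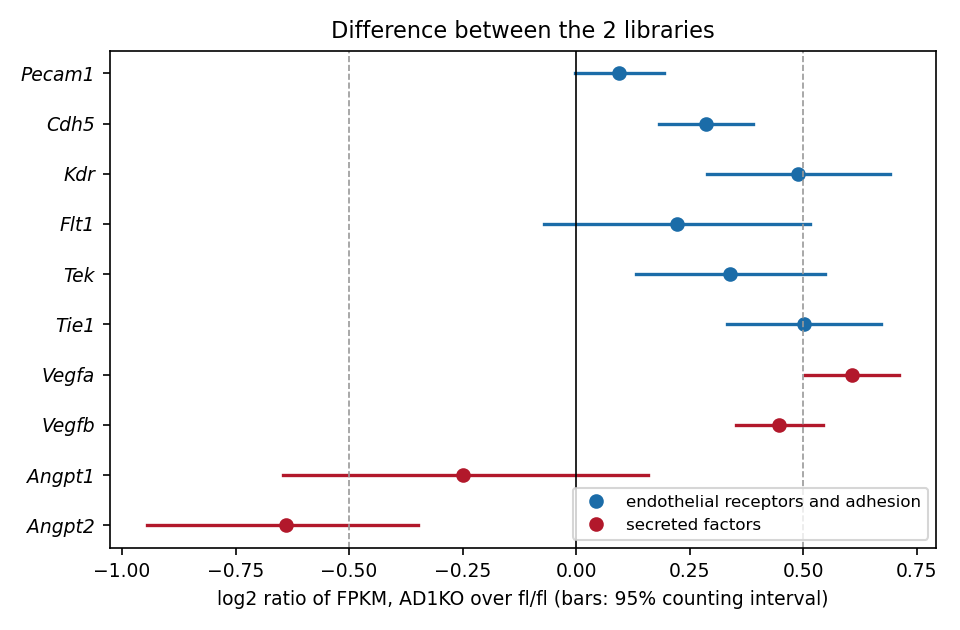
Log2 ratio of FPKM in AD1KO over fl/fl for each of the 10 genes, with its 95% counting interval, blue for endothelial receptor and adhesion genes and red for secreted factors; dashed lines mark 0.5 in either direction. *Vegfa*, at 0.61, is the only gene whose whole interval is past a dashed line, and *Angpt2*, at -0.64, the only one whose interval is wholly below 0.

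Ordered by log2 ratio, the genes ran from *Vegfa* through *Tie1*, *Kdr*, *Vegfb*, *Tek*, *Cdh5*, *Flt1*, *Pecam1*, and *Angpt1* to *Angpt2*. None of the 9 neighbouring pairs in that order had a difference whose interval left out 0, so the order is firm only over longer steps. Of all 45 pairs, 26 had such an interval. *Vegfa* and *Angpt2* were farthest apart, by 1.25 on the log2 scale (limits 0.94 to 1.55). *Angpt2* differed in this way from each of the other genes except *Angpt1*, from which it was 0.39 lower (limits of the difference -0.09 to 0.88).

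The order of levels also differed between the libraries. In fl/fl it was *Vegfb*, *Pecam1*, *Vegfa*, *Cdh5*, *Tie1*, *Angpt2*, *Tek*, *Kdr*, *Flt1*, *Angpt1*. In AD1KO *Vegfa* stood above *Pecam1*, by a ratio of 1.01 (limits 0.949 to 1.08) that does not separate them, whereas in fl/fl *Pecam1* was 1.41 times *Vegfa* (limits 1.31 to 1.52). *Angpt2* was level with *Tek* in fl/fl, at a ratio of 1.01 (limits 0.861 to 1.19), and lay below both *Tek* and *Kdr* in AD1KO, where *Kdr* was 1.90 times *Angpt2* (limits 1.58 to 2.27). Other neighbours that counting error does not separate were *Vegfa* and *Cdh5*, *Tek* and *Kdr*, and *Flt1* and *Angpt1* in fl/fl, and *Tek* and *Kdr* in AD1KO.

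Ratios of related genes inside a library do not depend on how the libraries were scaled. The level of *Vegfb* was 3.62 times that of *Vegfa* in fl/fl (limits 3.37 to 3.90) and 3.24 times in AD1KO (limits 3.05 to 3.45). *Pecam1* was 1.48 times *Cdh5* in fl/fl (limits 1.38 to 1.59) and 1.29 times in AD1KO (limits 1.21 to 1.38). *Kdr* was 2.21 times *Flt1* in fl/fl and 2.66 times in AD1KO, and *Tie1* was 1.76 times *Tek* in fl/fl and 1.97 times in AD1KO, and neither difference between the libraries exceeded counting error. *Angpt2* was 2.73 times *Angpt1* in fl/fl (limits 2.19 to 3.41) and 2.08 times in AD1KO (limits 1.62 to 2.69). The excess of *Angpt2* over *Angpt1* was thus present in both libraries, and its change between them was within counting error.

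**Figure D3:**
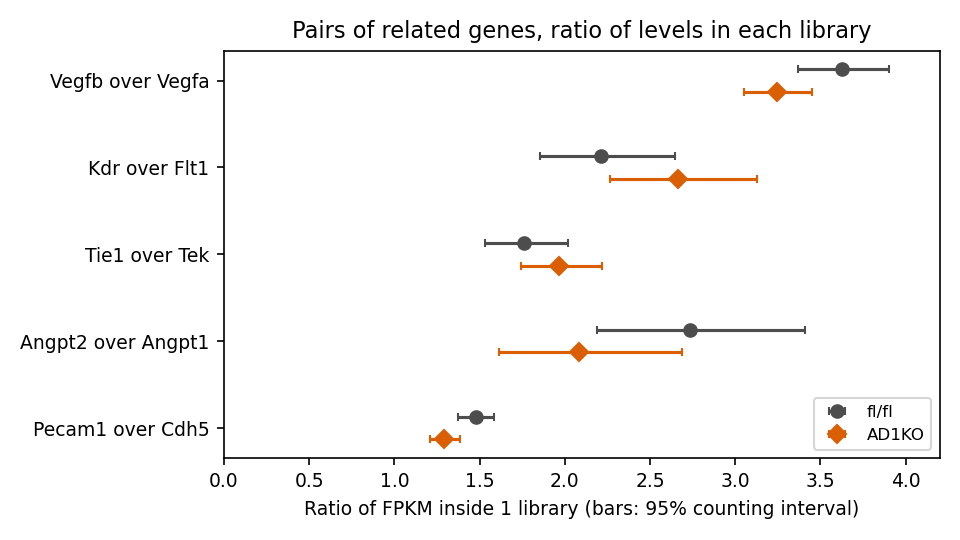
Ratio of the FPKM levels of 2 related genes inside each library, with 95% counting intervals that cover counting error only, for fl/fl (grey circles) and AD1KO (orange diamonds). The intervals of the libraries overlap for all 5 pairs, though for *Vegfb* over *Vegfa* and *Pecam1* over *Cdh5* the interval of the difference between libraries, given in the text, leaves out 0.

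Other genes of blood endothelium were examined to place the 6 receptor and adhesion genes. Of 30 further endothelial genes, all tested, 25 had a log2 ratio above 0, but 3 were called higher and 1 lower, with a median of 0.20. Over all genes tested, 14.3% were called higher and 19.1% lower. The whole counting interval lay above 0 for 16 of the 30 and below 0 for 3: *Cd93*, *Eng* (log2 ratio -0.36), and *Calcrl* (-0.28). The range from -0.59 to 0.88 was wider than that of the 6 genes. *Nos3*, which makes endothelial nitric oxide, had 617 estimated reads in fl/fl and 1123 in AD1KO (log2 ratio 0.88, limits 0.74 to 1.02). *Sox7*, a transcription factor of endothelium, and *Tmem204*, an endothelial membrane protein, were the others called higher, with log2 ratios of 0.57 and 0.51. *Cd93*, a lectin-like receptor also found on myeloid cells, was the gene called lower, with a log2 ratio of -0.59 (limits -0.68 to -0.50). *Gpihbp1*, the capillary anchor of lipoprotein lipase and the most abundant of the 30, had 95.4 FPKM in fl/fl and 125 FPKM in AD1KO (log2 ratio 0.38).

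Among 8 further ligands, receptors, and partners of the VEGF and angiopoietin systems, 0 were called higher and 2 lower. *Nrp2*, a VEGF co-receptor, had 8.41 FPKM in fl/fl and 5.17 FPKM in AD1KO (log2 ratio -0.70, limits -0.86 to -0.55). *Angpt4*, a further angiopoietin, had 0.76 FPKM in fl/fl and 0.18 FPKM in AD1KO, on 30 and 7 estimated reads. *Nrp1*, the co-receptor with the highest level, had a log2 ratio of -0.28 (limits -0.34 to -0.21), opposite in sign to *Kdr*, the receptor with which it acts. In fl/fl *Nrp1* was at 38.9 FPKM and *Kdr* at 3.72 FPKM. Whether the same cells gave the reads of *Nrp1*, *Nrp2*, and *Kdr* was not tested. *Vegfd* and *Ptprb*, the phosphatase that acts on TIE2, had log2 ratios of 0.36 and 0.39, both with intervals above 0.

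In the Notch, arterial, and venous list, 2 of 17 genes were called higher and 0 lower, with a median of 0.11. These were *Gja4*, an arterial connexin, at 0.60 and *Nr2f2*, a transcription factor of veins, at 0.58. *Rbpj*, the DNA-binding effector of Notch and most abundant of the list, was at -0.45 (limits -0.56 to -0.34). *Dll4*, the Notch ligand that VEGF-A induces in tip cells, was at 0.29 (limits -0.02 to 0.60).

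Other secreted angiogenic factors did not move with *Vegfa* as a group. Of 9, *Fgf1* was called higher, with 45.1 FPKM in AD1KO and a log2 ratio of 0.59, and *Pdgfb*, *Hgf*, and *Ctgf* were called lower, at -0.74, -0.62, and -0.51. *Fgf2*, with 2 reads in AD1KO and listed at 0 in fl/fl, also passes the threshold by its ratio, but lies within the 3 reads that a count of 0 allows and is not counted here. *Cxcl12*, the most abundant of the list, was at 73.5 and 72.7 FPKM. Among 7 inhibitors of vessel growth, *Sema3f* was called higher (log2 ratio 0.56) and 0 were called lower. *Serpinf1*, which encodes PEDF and was the most abundant of these, had 398 FPKM in fl/fl and 468 FPKM in AD1KO (log2 ratio 0.23).

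Hypoxia-response genes, a group that often accompanies *Vegfa*, were divided. Of 14, 2 were called higher and 2 lower, with a median of 0.06. *Egln3* and *Bnip3* had log2 ratios of 0.91 and 0.65, while *Ankrd37* and *Car9* were at -0.98 and -0.85. *Ldha*, the lactate dehydrogenase subunit and most abundant of the list, had 517 FPKM in fl/fl and 621 FPKM in AD1KO (log2 ratio 0.26). The counting interval lay above 0 for 7 of the 14 and below 0 for 6.

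**Figure D4:**
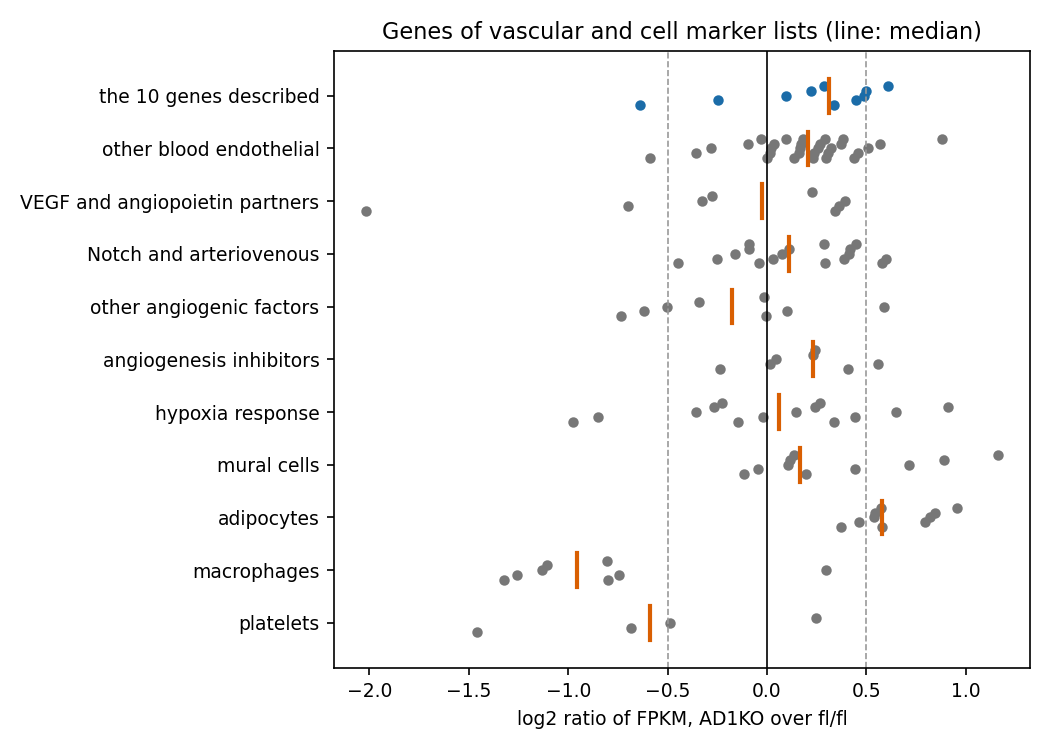
Log2 ratio of FPKM in AD1KO over fl/fl for the genes of each list with at least 10 reads over both libraries (points) and their median (orange line); dashed lines mark 0.5 in either direction, and 1 gene each of the platelet and other angiogenic factor lists is left out for fewer reads. The 10 genes described (blue) spread from -0.64 to 0.61, adipocyte markers lie above 0, and 7 of 8 macrophage markers lie below -0.5.

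Markers of other cell types also differed between the libraries. In bulk RNA alone, fewer cells of a type and less RNA per cell cannot be told apart. For macrophages, the paper reports from flow cytometry a lower percentage in gWAT of AD1KO females on HFD. All 10 adipocyte markers had a log2 ratio above 0 and 8 were called higher, with a median of 0.58. Their summed level was 6347 FPKM in fl/fl and 10710 FPKM in AD1KO. *Cidec*, *Retn*, *Slc2a4*, and *Adipoq*, the most abundant, had log2 ratios of 0.96, 0.84, 0.82, and 0.80. The range of the 10 adipocyte markers, 0.37 to 0.96, holds the ratios of *Vegfa*, *Tie1*, *Kdr*, and *Vegfb*. So do the ranges of the 30 other endothelial genes (-0.59 to 0.88) and of the mural markers (-0.12 to 1.16). That of the 8 macrophage markers (-1.32 to 0.30) holds none of them. Such ranges widen with the number of genes in a list, and what the overlap means for cell type was not tested. Of 8 macrophage markers 7 were called lower, among them *Itgax* (-1.32), *Adgre1* (-1.26), *Trem2* (-1.13), and *Cd68* (-1.11), the most abundant, while *Cd163* was at 0.30. The summed level of the 8 was 1377 FPKM in fl/fl and 653 FPKM in AD1KO. Among 5 platelet markers *Pf4*, which macrophages also express, was at 193 and 120 FPKM, while the other 4 were at no more than 1.57 FPKM in either library. Macrophages and platelets both express *Pecam1*, and adipocytes express *Vegfa* and *Vegfb*. The part of these cells in the values of the 10 genes was not tested.

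Mural cells, the pericytes and smooth muscle cells that wrap vessels, had 3 of 10 markers called higher and 0 lower, with a median of 0.17. The 3 were *Des*, *Myh11*, and *Mcam*, at log2 ratios of 1.16, 0.89, and 0.71. Which cells gave these transcripts was not tested. *Acta2*, the smooth muscle actin and most abundant of the list, had 121 FPKM in fl/fl and 164 FPKM in AD1KO (log2 ratio 0.44). The 6 other markers, *Pdgfrb*, *Rgs5*, *Cspg4*, *Kcnj8*, *Abcc9*, and *Notch3*, ran from -0.12 for *Notch3* to 0.20 for *Abcc9*.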

How the data were processed

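Gene expression was measured by RNA-seq of poly(A) RNA from gWAT, with 1 library of RNA pooled from 4 mice for fl/fl and 1 for AD1KO. Clean reads had been mapped to mm9 by the sequencing service; the aligner, the program that quantified expression, and the use of strand are not given in the sources used here. The authors deposited FPKM per gene for both libraries in 1 table, with 0 written as 0.01, beside a log2 fold change, a P-value, and an FDR of their own (the FDR is a score that is not capped at 1). Those columns hold the authors' comparison and were not used. The deposited table also gives transcript length. RRBS samples were not analysed here.

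Values of 0.01 FPKM were set to 0. A gene entered the comparison if either library reached 0.1 FPKM. Low FPKM values fall on steps of whole reads: with transcript length shortened by 116 bases, 86.2% of 783 low values in fl/fl and 83.9% of 794 in AD1KO lay within 0.2 of a whole read, which gave the depths and reads per gene. Reads cannot be checked for duplicates, so intervals cover counting error only. Intervals of differences between genes and of ratios inside a library were taken from the reciprocals of the reads on the log scale. The steps were tested on simulated data. Other lists name the genes past the threshold with at least 1 FPKM in 1 library, at most 4 per direction, and the most abundant gene; exceptions were chosen after their values were seen. The genes and lists were chosen with earlier results of these data known. The plan's rules for data without read counts were used. Alternatives were 2 larger pseudocounts, other filters, 3 scalings, a threshold of 1, whole intervals past the threshold, and, added later, ratios of estimated reads. Positions are from GENCODE on mm9. Scripts ran in Python 3.11.15 with pandas 2.3.3, SciPy 1.17.1, Matplotlib 3.10.9, and NumPy 2.4.6.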

Additional observations from a re-analysis of the deposited data

How the results depend on the processing

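No paired analysis was possible because each genotype gave a single pooled library. Each of the 10 genes kept its sign under the 6 alternatives that change its ratio (2 pseudocounts, 3 scalings, and estimated reads), and none moved by more than its counting error, but calls near the threshold changed. Against 2 genes called higher and 1 lower, an added 0.1 FPKM left 1 higher. An added 1 FPKM left 1 higher and 0 lower, as *Tie1* went to 0.45 and *Angpt2* to -0.496. Upper quartile scaling gave 4 higher, *Kdr* (0.58) and *Vegfb* (0.54) joining, and trimmed mean of M-values and median of ratios scaling gave 3 with *Kdr*. All 3 scalings raised the ratio of each of the 10 genes, and counting limits would rise with the ratios. Intervals were taken with the deposited scaling only. That of *Pecam1* would lie above 0 under each of the 3, and that of *Flt1* under upper quartile scaling. Shares of all genes would change too and were not recomputed. A threshold of 1 left 0 higher and 0 lower, and the whole interval past the threshold 1 higher, *Vegfa*, and 0 lower. The median of the 10 genes ran from 0.28 with an added 1 FPKM to 0.40 with upper quartile scaling.

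Over all genes, 3029 were lower and 2265 higher. An added 1 FPKM gave 1661 and 965, a threshold of 1 gave 1417 and 909, and the whole interval past the threshold 1311 and 661. A minimum of 1 FPKM gave 1281 higher, with fewer genes tested. Upper quartile scaling gave 2609 lower and 2796 higher. Depth limits *Angpt1*, *Angpt2*, and *Flt1* most, whose intervals span 0.81, 0.60, and 0.59 on the log2 scale, while the missing replicates limit every result.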

Other observations

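Lymphatic endothelium shares *Pecam1*, *Flt4*, and *Tie1* with blood endothelium. Of its 4 markers tested, 2 were called higher and 0 lower, with a median log2 ratio of 0.45. The summed level of the list was nearly the same, 25.7 FPKM in fl/fl and 25.6 FPKM in AD1KO. *Lyve1* was at 8.93 and 8.49 FPKM and *Pdpn* at 16.4 and 16.2 FPKM. *Mmrn1* had 22 estimated reads in fl/fl and 58 in AD1KO (log2 ratio 1.40, counting limits 0.68 to 2.19), and *Reln* 16 and 32 (0.92, limits 0.11 to 1.98); both were called higher and below 1 FPKM. *Prox1*, the factor that defines these cells, is listed at 0 in both libraries. *Flt4*, the receptor of VEGF-C, had 0.88 FPKM in fl/fl and 1.12 FPKM in AD1KO (log2 ratio 0.34, counting limits -0.07 to 0.77).

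Stromal and mesothelial genes moved in their own ways. Of 7 stromal progenitor genes, *Ly6a* and *Pi16* were called lower (log2 ratios -1.31 and -0.70) and *Dpp4* higher (0.50), while *Dcn*, the most abundant, was at 0.20. *Ly6a* is also expressed by endothelium. All 5 mesothelial markers, of the layer that covers gonadal fat, were called higher, with log2 ratios of 1.07 for *Upk3b* (30.6 and 64.3 FPKM), the most abundant, 0.83 for *Msln*, 0.76 for *Krt19* and *Wt1*, and 0.75 for *Lrrn4*. Their summed level was 74.3 FPKM in fl/fl and 140 FPKM in AD1KO, and their part in the values of the 10 genes was not tested.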
